A study of Mus musculus with 2 samples.

Results

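The 8 genes described here handle metals, heme and iron in the cell, and they were chosen by their measured values in these same libraries. They are the metallothioneins Mt1 and Mt2, the zinc exporter Slc30a1, the heme oxygenase Hmox1, the iron exporter Slc40a1, the ferritin subunits Fth1 and Ftl1, and the transferrin receptor Tfrc. All 8 matched a row among the 32285 genes of the count tables. Their levels and their differences between the libraries are therefore a description, and no p-value is attached to them.

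Droplet-based single-cell RNA sequencing of the 3′ ends of transcripts was run on subcutaneous tumors of female C57BL/6 mice, 6 to 8 weeks old, injected with 1000000 cells of SO, a mouse ovarian cancer line that is syngeneic with the strain. One library came from wild-type mice (WT) and one from mice with the tight skin mutation (TSK), a duplication inside Fbn1, the gene of the matrix protein fibrillin-1. Both libraries held the tumors of several mice pooled before sequencing, so each genotype is 1 sample and the mice cannot be told apart. Genotype, pool and library cannot be told apart either, and every interval below is a 95% interval for counting error only.

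Metallothioneins are small cysteine-rich proteins that bind zinc and copper, and their genes are switched on by metal, glucocorticoid and oxidative stress. Heme oxygenase 1 opens the heme ring and frees its iron, which ferritin cages of heavy (Fth1) and light (Ftl1) chains store, ferroportin (Slc40a1) exports from the cell, and the transferrin receptor (Tfrc) brings in. Macrophages are the main cells of iron recycling, and in tumors they can take up the heme and metals of dying cells.

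Levels are unique molecular identifiers (UMIs) of a gene per 1000000 UMIs of a class of cells, given as counts per 1000000 (CPM). The WT library held 2332 barcodes and 21225411 UMIs, and the TSK library 4436 barcodes and 48296765 UMIs. As many as 263 barcodes occurred in both libraries, and these were left out. The filter kept 1442 WT cells (median 7658.5 UMIs) and 2961 TSK cells (median 7302 UMIs), of which 77.9% and 70.4% received a lineage from their marker UMIs. The macrophages numbered 213 in WT and 386 in TSK, with a median of 11871 UMIs per WT cell and 7415.5 per TSK cell, and they were led by C1qa, C1qc and C1qb. The other classes with at least 20 cells in each library were monocytes (122 and 59), neutrophils (40 and 199), T cells (416 and 266), fibroblasts (163 and 250), endothelial cells (61 and 55) and cancer cells (78 and 812). Lgals7, Cdkn2a and Krt18 carried the cancer class, while Krt7, Krt8 and Krt19 stood in it at only 1.31, 18.0 and 17.1 CPM. Cancer RNA was also found outside its class and more so in TSK: the summed level of these 3 carrying markers in macrophages was 0.282% of the level in cancer cells for WT and 6.12% for TSK. Fbn1 stood at 1444 CPM in WT fibroblasts and 1661 in TSK fibroblasts, but a tag at the 3′ end does not read the duplication and so does not check the genotype.

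The ferritin, ferroportin and transferrin receptor transcripts carry a known regulatory hairpin, the iron responsive element, which iron regulatory proteins bind when iron is scarce. It is shown here because it sets these genes apart from the metallothioneins and because a UMI counts transcripts and not their translation. A search of the GENCODE M21 transcripts (GRCm38) for a bulged C, 5 stem bases, the loop CAGTGN and 5 pairing stem bases found 1 element in the 5′ untranslated region of Fth1, Ftl1 and Slc40a1 each and 4 in the 3′ untranslated region of Tfrc. Among all genes with such regions, 0.11% had a match in the 5′ and 0.461% in the 3′ region. The elements are given 5′ to 3′ with 6 bases on either side and the loop in capitals.
Fth1, chr19:9982732-9982760, plus strand: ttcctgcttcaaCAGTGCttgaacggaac
Ftl1, chr7:45459779-45459807, minus strand: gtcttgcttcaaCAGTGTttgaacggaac
Slc40a1, chr1:45925465-45925493, minus strand: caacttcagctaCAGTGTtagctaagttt
Tfrc, chr16:32631219-32631247, plus strand: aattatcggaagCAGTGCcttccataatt
Tfrc, chr16:32631598-32631626, plus strand: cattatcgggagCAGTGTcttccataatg
Tfrc, chr16:32631663-32631691, plus strand: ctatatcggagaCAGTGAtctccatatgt
Tfrc, chr16:32631710-32631738, plus strand: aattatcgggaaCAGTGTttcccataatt

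Mt1 and Mt2 lie 5513 bases apart on chromosome 8 (GRCm38; Mt2 at chr8:94172664-94173568 and Mt1 at chr8:94179082-94180327, both on the plus strand). The start regions of both genes from RefSeq (GRCm38.p6) are shown because both genes were higher in TSK macrophages. They run from 250 bases before the annotated start to 30 bases after it. Cores of the metal response element, the site of the zinc-sensing factor Mtf1, are in capitals. The cores were searched on both strands as TGCACNC and TGCGCNC, and of 32851 promoter windows of 300 bases listed, 12.6% held the first and 15.4% the second.
Mt1, chr8:94178839-94179118: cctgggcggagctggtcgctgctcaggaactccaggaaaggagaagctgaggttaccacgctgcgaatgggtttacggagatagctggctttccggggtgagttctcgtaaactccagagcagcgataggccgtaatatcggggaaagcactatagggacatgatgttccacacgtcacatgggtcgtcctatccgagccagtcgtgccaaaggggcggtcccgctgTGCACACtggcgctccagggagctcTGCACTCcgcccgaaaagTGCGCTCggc
Mt2, chr8:94172368-94172647: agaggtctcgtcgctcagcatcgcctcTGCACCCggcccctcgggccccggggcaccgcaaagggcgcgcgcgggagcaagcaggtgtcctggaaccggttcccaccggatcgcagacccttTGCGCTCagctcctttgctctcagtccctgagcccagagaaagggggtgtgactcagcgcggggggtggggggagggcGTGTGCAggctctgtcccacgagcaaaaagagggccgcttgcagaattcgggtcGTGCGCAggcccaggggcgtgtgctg

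The window of Mt1 held 3 cores and that of Mt2 held 4, and 1.97% of all windows held at least 3. The window of Slc30a1 held 2 cores, as 7.11% of all windows did or exceeded. Of the windows listed for Fth1 and Ftl1 none held a core of either form, and 1 of those for Tfrc held 2 overlapping ones. Hmox1 and Slc40a1 were not matched to a window. The core ACGTG of the hypoxia response element was in the windows of Mt1 and Tfrc and in 19.6% of all windows, and the core TGACNNNGC of the antioxidant response element was in those of Mt2 and Slc30a1 and in 12.4% of all. A match describes the letters of the window and is not a site of binding.

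Macrophages of the TSK library held more RNA of both metallothioneins, of Hmox1 and of both ferritin chains, relative to all UMIs, than those of the WT library, while the zinc exporter Slc30a1 was lower. Among those of the 8 genes with at least 50 UMIs, the metallothioneins differed most, at 3.14-fold for Mt1 and 3.74-fold for Mt2. Of the 8 genes, 7 had at least 50 UMIs in macrophages over both libraries, and 4 of these 7 were at least 2-fold higher in TSK and 0 were 2-fold lower. Among all 8274 genes with 50 UMIs in macrophages, 6.91% were at least 2-fold higher in TSK and 1.57% at least 2-fold lower. Since the genes were selected on this contrast, nothing is read from their share. The median log2 ratio of TSK over WT was 1.06 over the 7 genes and 0.21 over the 8274.

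**Figure D1:**
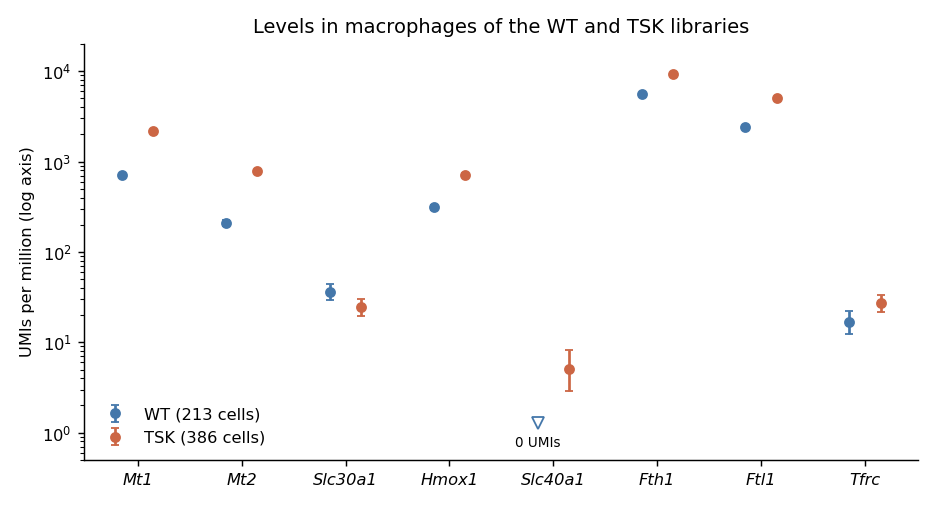
CPM of each of the 8 genes (log axis) in macrophages of the WT (213 cells) and TSK (386 cells) libraries. Points are summed UMIs over all UMIs of the class, bars are exact Poisson intervals, and the open triangle for Slc40a1 in WT marks the upper limit of 0 UMIs. The TSK points lie above the WT points for every gene except Slc30a1.

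Mt1 gave 2031 UMIs in WT macrophages and 7026 in TSK macrophages, at 703 and 2203 CPM, or 1.65 as the log2 of the TSK level over the WT level (1.58 to 1.72). Mt2 gave 601 and 2483 UMIs, or 208 and 778 CPM, a log2 ratio of 1.90 (1.78 to 2.04). The intervals of the libraries lay far apart for both genes. Per cell, the median of Mt1 was 3.31 UMIs per 10000 in WT, with quartiles of 0.760 and 8.02, and 8.87 in TSK, with quartiles of 2.87 and 23.8. The shift thus ran through the distribution, and the highest cell reached 68.0 per 10000 in WT and 280.2 in TSK. The 5 macrophages with most Mt1 held 23.8% of the Mt1 UMIs of WT and 15.7% of those of TSK. For Mt2, the corresponding shares were 49.6% and 20.8%, so that the WT level of Mt2 rested on few cells. Among the 85 WT and 272 TSK macrophages with at most 10000 UMIs, the log2 ratio of Mt2 was 3.75.

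The share of macrophages with a UMI of Mt1 was 77.9% in WT and 83.7% in TSK, and of Mt2 27.7% and 53.6%. WT cells were deeper, and at an equal depth of 500 UMIs per cell the shares were 24.9% and 41.2% for Mt1 and 6.57% and 22.0% for Mt2. The pair was found in the same cells. Of the WT macrophages with Mt2, 96.6% also held Mt1, and of the TSK macrophages with Mt2 it was also 96.6%. Across cells, Pearson's r of log2 of the UMIs per 10000 plus 1 was 0.50 over 213 WT cells and 0.73 over 386 TSK cells, where depth and library are shared by the points.

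Slc30a1 encodes ZnT1, which pumps zinc out of the cell and is like the metallothioneins a target of Mtf1. It gave 105 UMIs in WT macrophages and 78 in TSK, or 36.3 and 24.4 CPM, a log2 ratio of −0.57 (−1.01 to −0.13). It was detected in 25.8% of WT macrophages and 15.0% of TSK macrophages, and in 2.35% and 1.30% at 500 UMIs per cell, where the intervals overlapped. In WT, 5 cells held 34.3% of the UMIs of Slc30a1. The difference was not uniform over the macrophages: grouped by Arg1 and resident markers as below, Slc30a1 was lower in TSK in cells without an Arg1 UMI (46 and 10 UMIs, log2 ratio −1.10, −2.25 to −0.09), but the log2 ratio was −0.40 (−1.10 to 0.32) in resident-marker cells and 0.35 (−0.61 to 1.29) in cells with 10 or more Arg1 UMIs. The interval also reached 0 without resident-marker macrophages (−1.21 to 0.03).

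Hmox1 gave 900 UMIs in WT macrophages and 2286 in TSK, or 311 and 717 CPM, a log2 ratio of 1.20 (1.09 to 1.32). Scaled to the median of all genes, which lay 0.21 above 0, the log2 ratio was 0.99 for Hmox1 and 0.85 for Ftl1, both then under 2-fold. This difference lay in the upper part of the distribution. The share of cells with a UMI was 74.2% in WT and 67.1% in TSK, the median was 1.71 per 10000 in WT and 2.43 in TSK, and the upper quartile was 4.05 and 6.45. At 500 UMIs per cell, 14.6% of WT macrophages and 17.9% of TSK macrophages held Hmox1, and the intervals of the shares overlapped. T cells, taken as a lineage with little Hmox1, held it in 4.57% of cells in WT, at a median depth of 6805.5 UMIs, and in 1.50% in TSK, at a median of 2890. Mt1 and Hmox1 were barely related across WT macrophages (r = 0.05) and more so across TSK macrophages (r = 0.42).

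Fth1 was the most abundant of the 8 genes. It gave 16025 UMIs in WT macrophages and 29691 in TSK, or 5543 and 9308 CPM, a log2 ratio of 0.75 (0.72 to 0.78), which is under 2-fold. Ftl1 gave 7020 and 16173 UMIs, or 2428 and 5070 CPM, a log2 ratio of 1.06 (1.02 to 1.10). The light chain thus differed more than the heavy chain, and Fth1 UMIs per Ftl1 UMI went from 2.28 in WT to 1.84 in TSK. Ftl1-ps1, a pseudogene nearly identical with Ftl1, was counted at 51.9 and 87.5 CPM, and some Ftl1 molecules may have been assigned to it or to other copies. Both ferritin genes had UMIs in over 95% of the macrophages of each library, so their difference was one of level.

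**Figure D2:**
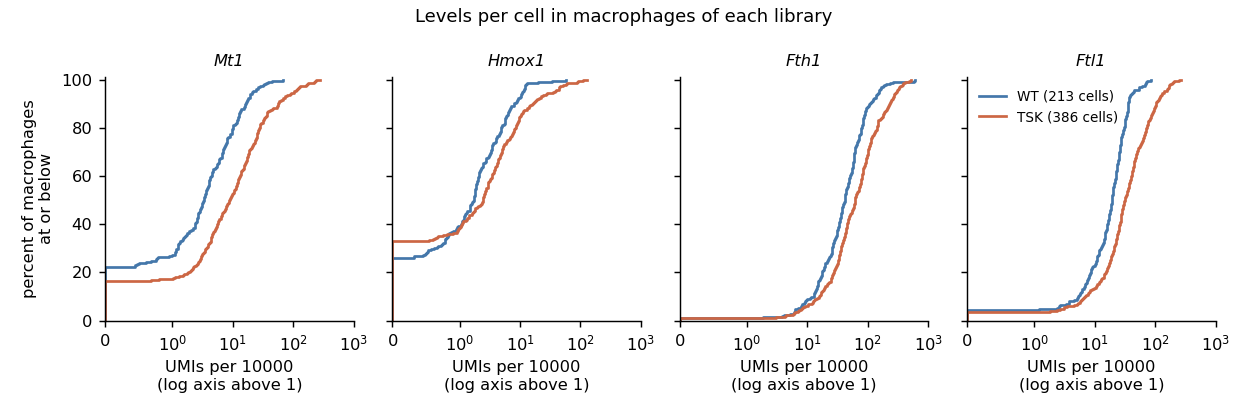
Percent of macrophages (vertical axis) at or below each level of Mt1, Hmox1, Fth1 and Ftl1 (horizontal axis, UMIs per 10000 UMIs of the cell, logarithmic above 1) in the WT (213 cells) and TSK (386 cells) libraries. The TSK curves of Mt1, Fth1 and Ftl1 lie to the right along nearly their whole length, and the curves of Hmox1 cross near 1 UMI per 10000, with more TSK than WT cells at 0.

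Slc40a1, the gene of ferroportin, was at 0 UMIs in the WT macrophages, where a count of 0 allows up to 1.04 CPM (3 UMIs), and at 16 UMIs or 5.02 CPM in TSK. The interval of the log2 ratio had a lower limit of 1.81, and among macrophages with at most 10000 UMIs the TSK level was 1.40 CPM. Its UMIs came from 1.30% of the TSK macrophages, with 6 of them in a single cell, and 14 of the 16 lay in macrophages with a resident marker. Tfrc gave 48 UMIs in WT macrophages and 86 in TSK, or 16.6 and 27.0 CPM, a log2 ratio of 0.70 (0.17 to 1.24). The share of cells with a UMI was lower in TSK (10.9%) than in WT (16.4%), where cells were deeper. At 500 UMIs per cell the shares were 1.04% in TSK and 1.88% in WT. In TSK 18 of the 86 UMIs were in 1 cell. The sign of the Tfrc difference depended on the weight of such cells: with equal weight for each macrophage the log2 ratio was −0.19, and without macrophages holding a UMI of a carrying cancer marker it was −0.065.

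The macrophages differed in makeup between the libraries. A UMI of the resident macrophage markers Folr2, Lyve1 or Cd163 was present in 52 WT macrophages (24.4%) and 172 TSK macrophages (44.6%). The others were grouped by the UMIs of Arg1, the arginase of tumor and alternatively activated macrophages. No Arg1 UMI was found in 64 WT and 56 TSK cells, 1 to 9 in 24 and 68, and 10 or more in 73 and 90. Deeper cells pass the limit of 10 more easily, and the median UMIs per cell of this last group were 13234 in WT and 7792 in TSK.

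Mt1 was highest in the cells with 10 or more Arg1 UMIs, at 978 CPM in WT and 3423 in TSK, a log2 ratio of 1.81 (1.71 to 1.91). Cells with no Arg1 UMI had 277 CPM in WT and 483 in TSK, for a log2 ratio of 0.80 (0.46 to 1.15). Those with 1 to 9 Arg1 UMIs had 396 and 1634 CPM on 70 and 446 UMIs. Their log2 ratio was the largest of the groups, at 2.04 (1.68 to 2.43). Mt1 stood in the resident-marker cells at 684 and 2048, a log2 ratio of 1.58 (1.46 to 1.70). Mt1 was thus higher in TSK in each group, and its level rose with Arg1 within both libraries. Mt2 was likewise highest in the cells with 10 or more Arg1 UMIs, at 335 and 1283 CPM, against 39.8 and 74.3 in cells without Arg1. In cells with 1 to 9 Arg1 UMIs it gave only 2 UMIs in WT and 138 in TSK. Its difference in cells without Arg1, a log2 ratio of 0.90 (−0.04 to 1.83), was not resolved at this depth.

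Fth1 in cells with 10 or more Arg1 UMIs was 7382 CPM in WT and 14802 in TSK (log2 ratio 1.00), against 3213 and 5270 in cells without Arg1 (0.71). Ftl1 was 2545 and 6154 CPM in the first group (log2 ratio 1.27) and 1566 and 2366 in the second (0.60). For Hmox1 the groups differed in another way. It was 287 and 305 CPM in cells without Arg1, where the log2 ratio of 0.09 (−0.31 to 0.48) spanned 0. In cells with 1 to 9 Arg1 UMIs it was 102 and 414 CPM on 18 and 113 UMIs (2.02, 1.30 to 2.83). It was 257 and 721 CPM in cells with 10 or more Arg1 UMIs (1.49) and 427 and 817 in the resident-marker cells (0.94). Hmox1 was the only one of these 5 genes with its highest level of both libraries in resident-marker cells. Lgals7, the leading marker of the cancer cells, stood at 22.3, 20.1 and 75.3 CPM in the TSK cells without Arg1, with 10 or more Arg1 UMIs and with resident markers. The part of cancer RNA in these differences was not tested.

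**Figure D3:**
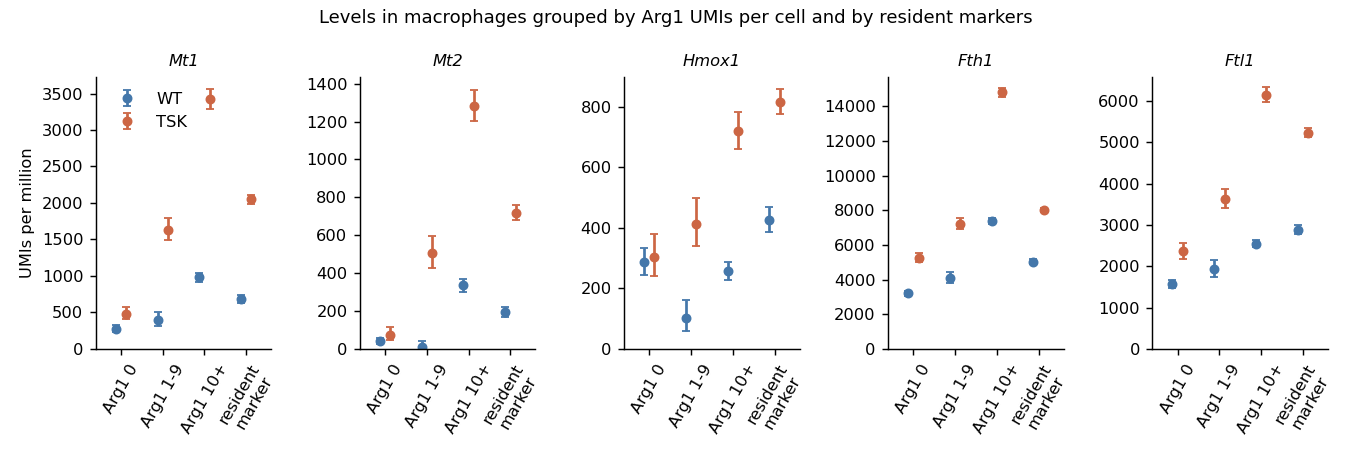
CPM (axes from 0, with a scale for each gene) of Mt1, Mt2, Hmox1, Fth1 and Ftl1 in macrophages without resident markers, grouped by Arg1 UMIs per cell (0, 1 to 9, 10 or more), and in macrophages with a UMI of Folr2, Lyve1 or Cd163. Points are sums over cells and bars exact Poisson intervals. The TSK point is above the WT point in each group, with overlapping intervals for Mt2 and Hmox1 in cells without Arg1.

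Across the lineages the 8 genes had different homes. The metallothioneins were highest in fibroblasts, Hmox1 in macrophages, neutrophils and monocytes, the ferritin chains in neutrophils and macrophages, and Tfrc in neutrophils, T cells and cancer cells of WT and in cancer cells, neutrophils and endothelial cells of TSK. Fibroblasts held 44.1% of all Mt1 and 77.1% of all Mt2 UMIs of the WT library with 21.8% of its UMIs. In the TSK library, where cancer cells held 56.0% of the UMIs, they held 50.9% of the Mt1 UMIs. Macrophages held 45.3% of the Hmox1 UMIs of WT and 52.8% of those of TSK, with 16.9% and 6.99% of all UMIs.

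**Figure D4:**
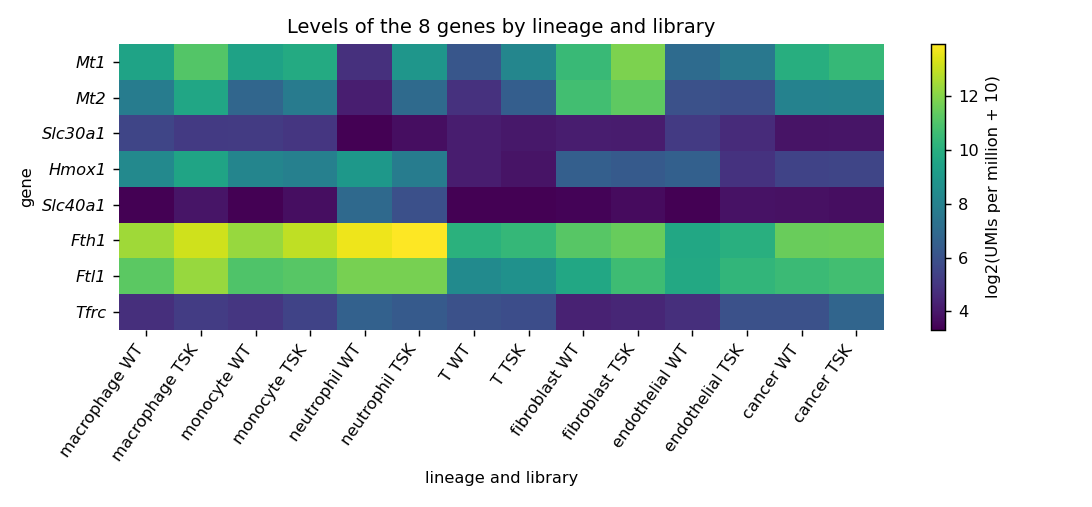
Levels of the 8 genes (rows) in the 7 lineages of both libraries (columns) as log2 of CPM plus 10. Fth1 and Ftl1 are brightest in neutrophils and macrophages, Mt1 and Mt2 in fibroblasts, and Slc40a1 is above the other lineages in neutrophils only.

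Fibroblasts had 1480 CPM of Mt1 in WT and 3627 in TSK, a log2 ratio of 1.29 (1.25 to 1.34), and 1688 and 2546 of Mt2, a log2 ratio of 0.59 (0.55 to 0.64). Of the 7 lineages, only WT fibroblasts had more UMIs of Mt2 than of Mt1. Mt2 made up 53.3% of the UMIs of the pair in WT fibroblasts (52.4% to 54.2%) and 41.2% in TSK fibroblasts (40.5% to 41.9%), against 22.8% and 26.1% in macrophages and 20.1% and 16.0% in cancer cells. The share of Mt2 was therefore lower in TSK than in WT fibroblasts and higher in TSK than in WT macrophages. Ftl1 was 818 and 1580 CPM in fibroblasts (log2 ratio 0.95), while Fth1 was 2333 and 2856 (0.29). Of 7 genes with 50 UMIs in fibroblasts, 1 was 2-fold higher in TSK and 0 were 2-fold lower, with 6.3% and 2.97% of 9054 genes doing so.

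Cancer cells had 993 CPM of Mt1 in WT and 1377 in TSK, a log2 ratio of 0.47 (0.42 to 0.53), and 250 and 263 of Mt2. The 78 WT cells are few, and 5 of them held 63.1% of the Mt1 UMIs. Tfrc went from 51.3 CPM in WT to 99.3 in TSK, with a log2 ratio of 0.95 (0.71 to 1.21). It was detected in 53.8% of cancer cells in WT and 69.2% in TSK. This is the receptor of dividing and iron-demanding cells, and among the 7 lineages of both libraries its level was highest in TSK cancer cells. In cancer cells all 8 genes passed 50 UMIs, and 0 were 2-fold higher and 0 were 2-fold lower in TSK, beside 7.61% and 6.53% of 12028 genes.

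T cells had little metallothionein. Mt1 was 62.6 CPM in WT and 285 in TSK, a log2 ratio of 2.19 (1.91 to 2.47), and Mt2 18.9 and 79.6, a log2 ratio of 2.08 (1.55 to 2.61). These 2 of the 5 genes with 50 UMIs were 2-fold higher in TSK and 0 were 2-fold lower, beside 2.28% and 1.93% of 6437 genes. In TSK 5 T cells held 60.8% of the Mt1 UMIs, and 27.1% of the cells had one. The 3 carrying cancer markers stood in TSK T cells at 5.78% of their level in cancer cells, and the same share of the Mt1 level of cancer cells is 79.5 CPM. Tfrc was 52.1 and 47.5 CPM in T cells, a log2 ratio of −0.13 (−0.67 to 0.38), and Hmox1 was at 25 and 4 UMIs.

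Neutrophils had the highest Fth1 of the lineages, at 12945 CPM in WT and 15751 in TSK, a log2 ratio of 0.28 (0.20 to 0.36). Ftl1 was 3449 and 3438 CPM (log2 ratio −0.00, −0.16 to 0.15). Hmox1 was lower in TSK neutrophils, with 56 and 130 UMIs or 491 and 209 CPM, a log2 ratio of −1.23 (−1.70 to −0.76), the direction opposite to macrophages. Slc40a1 stood at 114 and 49.8 CPM in neutrophils on 13 and 31 UMIs, above its level in the 6 other lineages, with a log2 ratio of −1.20 (−2.17 to −0.14). Mt1 gave 2 UMIs in 40 WT neutrophils and 290 in 199 TSK neutrophils (466 CPM), a log2 ratio of 4.73 (2.86 to 7.78), and Mt2 gave 1 and 73 UMIs. The WT counts are under the 3 UMIs that a count of 0 allows (26.3 CPM), and 5 TSK neutrophils held 71.0% of the Mt1 UMIs, with 77 in 1 cell. The carrying cancer markers in TSK neutrophils reached 23.3% of their level in cancer cells, and that share of the Mt1 level of cancer cells is 320.3 CPM. Of 6 genes with 50 UMIs in neutrophils, 2 were 2-fold higher and 1 was 2-fold lower in TSK, beside 29.8% and 15.3% of 2094 genes.

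Endothelial cells had 85.2 CPM of Hmox1 in WT and 19.5 in TSK, a log2 ratio of −2.13 (−3.09 to −1.28), also opposite to macrophages, with 37 of the 92 WT UMIs in 1 cell. Tfrc was 16.7 and 52.5 CPM, a log2 ratio of 1.66 (0.80 to 2.56), with 18 of the 35 TSK UMIs in 1 cell. Among 6 genes with 50 UMIs, 1 was 2-fold higher in TSK and 1 was 2-fold lower, beside 13.7% and 5.15% of 4812 genes. Hmox1 and Tfrc were the only ones of these 6 genes past 2-fold in endothelial cells, and a single cell carried much of each. In monocytes, the closest lineage to macrophages, Hmox1 was 273 and 239 CPM (log2 ratio −0.19, −0.58 to 0.17) and Mt1 676 and 902 (0.42, 0.21 to 0.61). Fth1 was 5115 and 7871 CPM in monocytes (0.62, 0.55 to 0.69). Mt2 was 103 and 205 CPM in monocytes on 108 and 66 UMIs (0.99, 0.53 to 1.45), just under 2-fold, and 5 cells held 72.2% of its UMIs in WT and 75.8% in TSK. Of 5 genes with 50 UMIs in monocytes, 0 were 2-fold higher and 0 were 2-fold lower, beside 6.61% and 5.46% of 3553 genes.

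**Figure D5:**
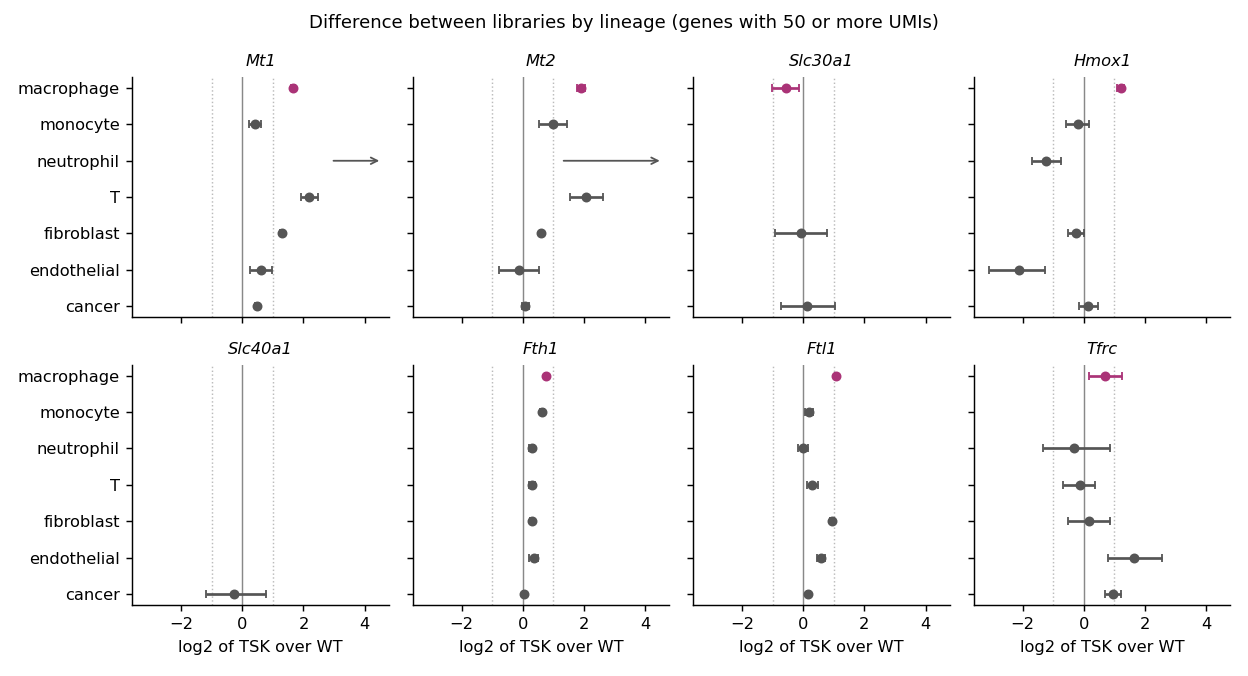
log2 ratio of TSK over WT (horizontal axis) of each gene in each lineage where it had at least 50 UMIs, with exact conditional intervals. Macrophages are in purple, dotted lines mark 2-fold, and arrows start at the lower limit where WT had 3 UMIs or fewer. Mt1 and Fth1 lie right of 0 in all 7 lineages, Fth1 by only 0.05 in cancer cells, and Hmox1 is right of the 2-fold line in macrophages and left of it in neutrophils and endothelial cells.

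The log2 ratios of Mt1 had intervals above 0 in all 7 lineages, at 0.42 to 4.73. Those of Mt2 spanned 0 in endothelial cells (−0.11, −0.78 to 0.54) and in cancer cells (0.07, −0.04 to 0.19). In monocytes, where Mt1 differed least, 5 TSK cells held 53.3% of its UMIs, and it was detected in 66.4% of cells in WT and 64.4% in TSK. WT monocytes were deeper, at a median of 8489 UMIs per cell against 4466 in TSK. At the equal depth per cell used for macrophages, the monocyte shares of Mt1 were 18.0% in WT and 32.2% in TSK. The intervals of these shares overlapped (11.7% to 26.0% in WT and 20.6% to 45.6% in TSK). The ratios of Fth1 also had intervals above 0, at 0.05 to 0.75, but the 0.05 of cancer cells was below the median of all genes there (0.13), and the values of fibroblasts (0.29) and endothelial cells (0.36) were close to theirs (0.23 and 0.32). The carrying cancer markers stood in TSK endothelial cells at 8.27% of their level in cancer cells, which amounts to 114 CPM of Mt1 and 248 of Fth1. Endothelial Mt1 was 119 CPM in WT and 182 in TSK, and Fth1 807 and 1037. In TSK monocytes the share was 7.30%, or 100 CPM of Mt1. The part of cancer RNA in these differences was not tested. Lists of related genes were then counted in macrophages, where 6.91% of all genes with 50 UMIs were 2-fold higher in TSK and 1.57% were 2-fold lower. Of 12 genes of heme uptake, transport and breakdown, 9 had 50 UMIs, and 3 were 2-fold higher and 0 2-fold lower in TSK, with a median log2 ratio of 0.57. These were Cd163, the scavenger receptor of hemoglobin and haptoglobin (16.3 and 83.4 CPM, log2 ratio 2.36), Slc48a1, which moves heme out of the lysosome (24.6 and 63.6, 1.37), and Abcg2, a transporter of porphyrins among other substrates (4.84 and 12.5, 1.37). Abcg2 passed 50 UMIs on 14 in WT and 40 in TSK, and its interval was 0.46 to 2.37. Cd163 was one of the markers of the resident group, whose share was larger in TSK. Blvrb, a biliverdin reductase downstream of Hmox1, was 79.2 and 145 CPM, a log2 ratio of 0.88, and the related oxygenase Hmox2 was 67.1 and 90.6, a log2 ratio of 0.43. Lrp1, the hemopexin receptor and the most abundant of the list, was 232 and 297 CPM (0.36).

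Of 22 genes of iron uptake, storage, export and regulation, 14 had 50 UMIs, 1 was 2-fold higher in TSK and 0 were 2-fold lower, near the 6.91% and 1.57% of all genes, with a median log2 ratio of 0.34. The 1 was Cp, the ferroxidase ceruloplasmin, at 24.9 and 58.0 CPM (log2 ratio 1.22). The most abundant were Pcbp2 and Pcbp1, which carry iron to ferritin (288.5 and 325, 213 and 234 CPM), and Trf, transferrin (269 and 392, log2 ratio 0.54). Fbxl5, which senses iron, was 169 and 223 CPM (0.40). Aco1, an iron regulatory protein, was 26.3 and 17.6 CPM on 76 and 56 UMIs (−0.58, −1.11 to −0.07). Ireb2, the other iron regulatory protein, was 42.2 and 38.9 CPM on 122 and 124 UMIs (−0.12, −0.49 to 0.25). Of 9 genes of heme synthesis, 6 had 50 UMIs and 0 were past 2-fold in either direction (median 0.46). The most abundant of them was Alas1, the first enzyme of the pathway, at 49.1 and 56.7 CPM, followed by Fech, which inserts the iron, at 11.1 and 19.1.

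Of 14 genes of metal response and zinc transport, 11 had 50 UMIs and 0 were past 2-fold in either direction, and their median log2 ratio was 0.00, below the 0.21 of all genes. Mtf1, the factor that binds the metal response element, was found with 62 and 67 UMIs (log2 ratio −0.03, −0.55 to 0.49). The other metallothioneins Mt3 and Mt4 were at 0 or 1 UMI. The zinc importers Slc39a1 and Slc39a14 were 96.5 and 82.1, and 74.4 and 84.6 CPM, and Slc30a7, which loads zinc into the secretory pathway, was 48.8 and 48.9. The list was mixed. Slc39a10 (0.92), Slc30a6 (0.86) and Slc30a9 (0.43) had intervals above 0, and Slc30a4 (−0.69) had one below 0. These are 3 and 1 of the 11, beside 2750 and 903 of all 8274 genes. None of the 11 differed by as much as Mt1 or Mt2.

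Of 12 target genes of Nfe2l2, the factor of the oxidative stress response that also acts on Hmox1 and the ferritins, 10 had 50 UMIs, and 1 was 2-fold higher and 1 was 2-fold lower in TSK (median 0.25), beside 6.91% and 1.57% of all genes. Gclm and Gclc, the subunits of the enzyme of glutathione synthesis, differed in opposite directions, from 26.3 to 55.8 CPM (1.09) and from 161 to 68.3 (−1.23). The cystine importer Slc7a11 was 239 and 140.1 CPM (−0.77), and the most abundant 3 of the list were the peroxiredoxin Prdx1 at 439 and 764 (0.80), the autophagy receptor Sqstm1 at 289.5 and 319 (0.14) and the thioredoxin reductase Txnrd1 at 208 and 234 (0.17). Among 7 transcription factors, 5 had 50 UMIs and 0 were past 2-fold (median 0.32). Hif1a was 396 and 367 CPM, Nfe2l2 349 and 436, and Maf 218 and 313, while Spic, the factor of iron-recycling macrophages, was at 2 and 16 UMIs.

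Lists of stress genes were read beside these. Of 10 hypoxia response genes 9 had 50 UMIs, and 1 was 2-fold higher, Adm (4.15 and 31.0 CPM, 2.90), and 0 were 2-fold lower, beside the same 6.91% and 1.57%. The most abundant were Pgk1 (461 and 545 CPM), Ldha (428 and 599) and Vegfa (279.9 and 258). The summed level of the list was 1587 CPM in WT and 2028 in TSK macrophages (log2 ratio 0.35, 0.30 to 0.41). In fibroblasts it was 994 and 1879.9, a log2 ratio of 0.92. The log2 ratio was 0.97 in endothelial cells, 0.77 in neutrophils, 0.56 in T cells, 0.27 in monocytes and 0.11 in cancer cells. The carrying cancer markers stood in TSK fibroblasts at 13.2% of their level in cancer cells, a share that amounts to 182 CPM of Mt1. Of 14 genes that respond to tissue dissociation 14 had 50 UMIs and 0 were past 2-fold, led in level by Junb (1450.4 and 1486 CPM), Fos (749 and 979.96) and Dusp1 (625 and 846), and the summed level was 6138 and 6854 CPM in macrophages (0.16, 0.13 to 0.19). The log2 ratio of the dissociation sum was also above 0 in cancer cells (0.68) and fibroblasts (0.29). It was below 0 in T cells (−0.21), monocytes (−0.48), endothelial cells (−0.52) and neutrophils (−0.70). The part of hypoxia and of dissociation in the differences of the 8 genes was not tested.

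Over the 14 combinations of lineage and library, the pattern of Mt1 was most like that of Hsd17b4 (Pearson's r of log2 of CPM plus 10, 0.93), Mt2 (0.93) and Isoc1 (0.91), among 11240 genes. Mt2 was most like Axl (0.95), Mt1 and the iron reductase Steap3 (0.92). Slc30a1 was most like Hfe, Slc38a9 and Rasa4 (0.94, 0.94 and 0.93). Hmox1 was most like Aldh3b1 (0.95), Tgm2 (0.94) and Sirpa (0.94), Fth1 like Por (0.97), Cebpb (0.96) and Lpcat2 (0.96), and Ftl1 like Nfe2l2 (0.92), Asph (0.92) and Atp6v1g1 (0.92). Tfrc was most like Srpk2 (0.92), Cks2 (0.91) and Hmgb2 (0.89), of which the last pair is highest in dividing cells. Slc40a1 had too few UMIs for this. The points share libraries and depth, and the values describe these cells only.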

How the data were processed

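The authors deposited raw UMI counts per gene and barcode for each library, made with Cell Ranger on mm10 per the submitters' processing notes (version 7.1.1 there, 7.1.0 in the matrix header). Reads, ambient RNA removal and doublet removal were not part of the steps here, and doublets were not removed. Cells with at least 200 genes, at least 500 UMIs and at most 10% mitochondrial UMIs were kept, and barcodes found in both libraries were left out. Each cell was given the lineage with the highest marker UMIs per 10000, if it had at least 3 UMIs of at least 2 markers, a floor of 5 per 10000 (50 for fibroblasts and neutrophils) and 2 times the next lineage. The monocyte score was ignored in the margin of other lineages, and a monocyte needed 1 UMI of a macrophage marker. This rule was set after marker levels had been seen.

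UMIs were summed per class and library. Levels have exact Poisson, shares exact binomial and ratios exact conditional intervals (95%), which cover counting error only. With 1 library per genotype no test was made. A 2-fold difference among genes with at least 50 UMIs was the call. A count of 0 was taken to allow 3 counts. Shares were also taken after thinning each cell to 500 UMIs. The 8 genes, the gene lists and the alternatives were chosen with earlier results of these data known. Named genes were the 8, the genes of the lists past 2-fold, the most abundant 3 of each list, the 3 most similar patterns per gene, and others named for their role after their values were seen. One of the most abundant genes of a list is not reported here. The calculations ran in Python 3.11.15 with scipy 1.17.1 for the intervals, pandas 2.3.3 and numpy 2.4.6 for the sums and matplotlib 3.10.9 for the plots, and were tested on simulated counts. Gene positions are from GENCODE M21 and promoter windows from RefSeq, both for GRCm38, which mm10 also names.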

Additional observations from a re-analysis of the deposited data

Results flagged for a closer look

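Hmox1 differed between the libraries in opposite directions by lineage. Its log2 ratio of TSK over WT was 1.20 in macrophages, −1.23 in neutrophils (56 WT and 130 TSK UMIs) and −2.13 in endothelial cells (92 and 13 UMIs). Each genotype is 1 library, and the difference between the lineages was not tested.

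The 263 barcodes present in both libraries were outside the comparisons, apart from the alternative that kept them. Of these, 251 in WT and 255 in TSK passed the other limits, and 98 in each library met the erythroid markers. Over all 251 and 255 barcodes, erythroid or not, Tfrc stood at 79.8 counts per 1000000 UMIs (CPM) in WT (248 UMIs) and 55.3 in TSK (21 UMIs). Both were above the limit that a count of 0 allows (0.966 and 7.89 CPM). The intervals of the Tfrc levels overlapped (70.2 to 90.4 CPM in WT and 34.2 to 84.5 in TSK). Tfrc had a UMI in 12.0% of these barcodes in WT and 3.92% in TSK, and the erythroid ones were not taken separately. The WT barcodes held 3106376 UMIs in all and the TSK ones 380072, so these shares were taken at unequal depth.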

How the results depend on the processing

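Log2 ratios of TSK over WT in macrophages were recomputed under 8 alternatives, of which the last below was chosen after seeing the data. With upper limits of 10000 UMIs and genes per cell (85 and 272 cells) they were 2.11 for Mt1, 3.75 for Mt2, 1.50 for Hmox1, 0.71 for Fth1, 1.44 for Ftl1 and 0.018 for Tfrc. A stricter lineage rule gave 0.78 for Fth1. Equal weight for each cell gave 1.84 for Mt1, 2.48 for Mt2, 0.72 for Fth1 and 1.16 for Ftl1, and turned Tfrc to −0.19. Scaling by the median of gene ratios gave 1.44 for Mt1, 1.69 for Mt2, 0.99 for Hmox1, 0.54 for Fth1 and 0.85 for Ftl1, by its construction 0.21 lower for each. Without resident-marker macrophages the values were 1.77 for Mt1, 0.95 for Fth1 and 1.14 for Ftl1. Without macrophages holding a UMI of Lgals7, Cdkn2a or Krt18 they were 1.89 for Mt1, 2.19 for Mt2, 1.35 for Hmox1, 0.93 for Fth1 and 1.18 for Ftl1, and Tfrc turned to −0.065. Apart from the shift that scaling gives by construction, the cause of the shifts was not tested for any setting. Slc30a1 lay between −0.83 and −0.47, but its interval reached 0 under the upper limits (−1.65 to 0.03), without resident-marker macrophages (−1.21 to 0.03) and without cancer-marker macrophages (−0.96 to 0.003). The Tfrc interval likewise reached 0 under the upper limits (−1.09 to 1.28) and the stricter lineage rule (0.28, −0.29 to 0.87). It also did so with median scaling (0.49, −0.04 to 1.03), without resident-marker macrophages (0.41, −0.39 to 1.21) and without cancer-marker macrophages (−0.77 to 0.62). Slc40a1 gave no ratio with 0 WT UMIs, and its TSK level fell from 5.02 to 1.40 CPM under the upper limits. Thinning each cell to 500 UMIs moved 15 of 16 shares of cells, and the upper limits moved 13 of 16 levels. No paired analysis was possible because each genotype has 1 library. Mice within a library cannot be separated, and depth limits Slc40a1, Tfrc and Slc30a1 most.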
